A study of Homo sapiens with 6 samples.

Results

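The genes described here encode the ephrins and their Eph receptors, the semaphorins with their plexin and neuropilin receptors, the Slits with their Robo receptors, and the netrins. They were picked out by gene symbol, and these families were chosen with earlier results of these data known. The symbol stems were EPHA, EPHB, EFNA, EFNB, SEMA3 to SEMA7, PLXN, ROBO, SLIT and NTN, each followed by a letter or number. NRP1 and NRP2 were added. The arrays measured 62 such genes among 18404 genes that could each be named from a probe set with 1 gene symbol. RefSeq lists 64 protein-coding genes of these families, and EPHB2 and SEMA4C are not analysed here. A further 14 antisense, pseudogene or readthrough symbols of the same stems are also not analysed here.

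All 6 samples were HaCaT cells, a spontaneously immortalized human keratinocyte line that grows as a flat epithelial sheet. The 3 shControl samples had received a lentiviral control vector and the 3 shTP63 samples a lentiviral short hairpin RNA against TP63, the gene for the epithelial transcription factor p63, and RNA was taken 72 hours later. The labels name 1 growth recipe with a choice of 3 media for both groups, do not say how many hairpins were used, and do not say whether the 3 replicates of a group were separate cultures, so a p-value here reflects how far these particular samples scatter, and that scatter may be technical. HaCaT is a single line. The level of TP63 is not analysed here, the depth of its knockdown is therefore unchecked, and every direction rests on the labels. The comparison asks which guidance ligands and receptors differ in level when TP63 is targeted.

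Guidance proteins were first described as cues that attract or repel growing axons, and in epithelia the same ligand and receptor pairs act at contacts between cells. Ephrins are membrane-bound ligands that signal through Eph receptor tyrosine kinases on the neighbouring cell and also back into the cell that carries them. Semaphorins signal mostly through plexins, which act on small GTPases, and most of the secreted class 3 semaphorins use neuropilins as coreceptors. Slits signal through Robo receptors, and netrins through receptors such as DCC, neogenin and the UNC5 family.

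The values are log2 of the deposited array intensities, a difference is shTP63 minus shControl on that log2 scale, and a gene is said to rise or fall where limma's moderated test, adjusted by the Benjamini-Hochberg method over all 18404 genes, gave an adjusted p under 0.05. The arrays were alike, with median intensities of 173 to 190, correlations of 0.996 to 0.998 within a group and 0.988 to 0.991 between groups, and a median standard deviation within a group of 0.058 over all genes and 0.057 over the guidance genes. The median log2 intensity of all probe sets was 7.45 in shControl and 7.56 in shTP63. Background is set here at 6.76, a level that 95% of 340 olfactory receptor genes stayed below.

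Of the 62 guidance genes, 25 rose, 4 fell and 33 did not pass. Rises made up 40.3% of the guidance genes against 16.4% of all genes tested, and falls made up 6.45% against 25.1%. A rise of at least 0.5 was called for 8 of the 62, against 3.12% of all genes, and a fall of that size for 1, against 3.87%. The median difference was 0.07 over the guidance genes and -0.01 over all genes. The 2 groups of arrays did not overlap for 33 of the 62 genes (53.2%), which is near the 51.4% of all genes. The largest rise was that of SEMA7A (1.30) and the largest fall that of SEMA6D (-1.09). Where each array was instead centred on its own median, all differences moved down (the median over all genes by 0.107 to -0.12, that of the guidance genes to -0.03), and 17 guidance genes rose and 10 fell beside 9.68% and 43.1% of all genes.

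**Figure D1:**
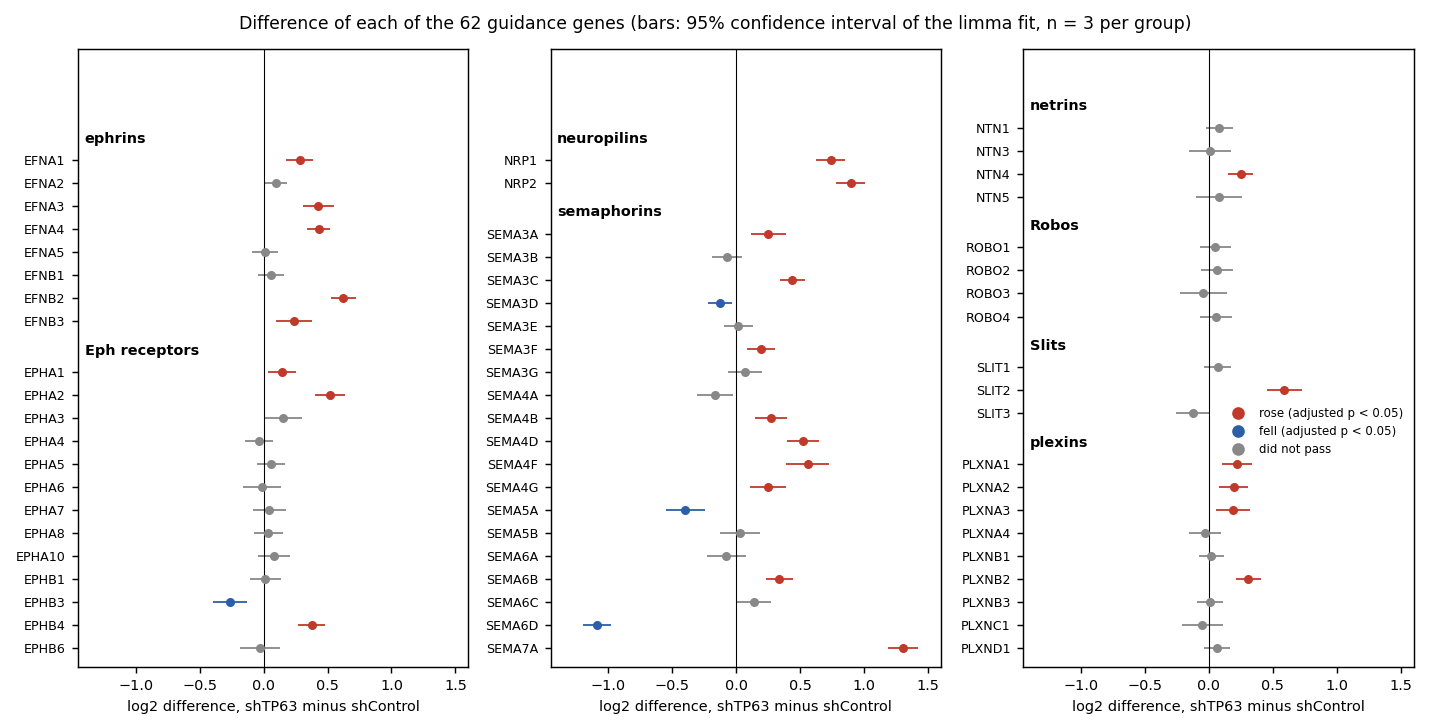
Difference in log2 intensity (shTP63 minus shControl, horizontal axis) of each of the 62 guidance genes, ordered by family, with the 95% confidence interval of the limma fit as a bar and n = 3 per group. Red marks the 25 genes that rose, blue the 4 that fell and grey the 33 that did not pass, and SEMA7A at 1.30 and SEMA6D at -1.09 lie farthest from 0.

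The share of called genes depended on how bright a gene was, so the guidance genes were also read within 5 equal bins of mean level. In the brightest bin 9 of 13 guidance genes rose and 2 fell, where 25.3% of all genes rose and 44.0% fell. In the bin below it 10 of 17 rose and 2 fell, where 18.5% of all genes rose and 43.0% fell. The median difference of all genes was -0.10 in both of these bins, while that of the guidance genes was 0.22 in the brightest and 0.19 in the one below. In the middle bin 4 of 8 guidance genes rose and 0 fell, where 18% of all genes rose and 25.4% fell. In the next bin down 2 of 16 rose and 0 fell, near the 13.7% of all genes that rose, where 8.67% fell. In the dimmest bin 0 of 8 rose or fell, where 6.36% of all genes rose and 4.43% fell. Of the 10 guidance genes whose mean was under background in both groups, 0 were called by limma after adjustment, and 1 (EPHA3) had an unadjusted p under 0.05. Of all genes, 4927 were under background in both groups, and 559 of those were called.

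**Figure D2:**
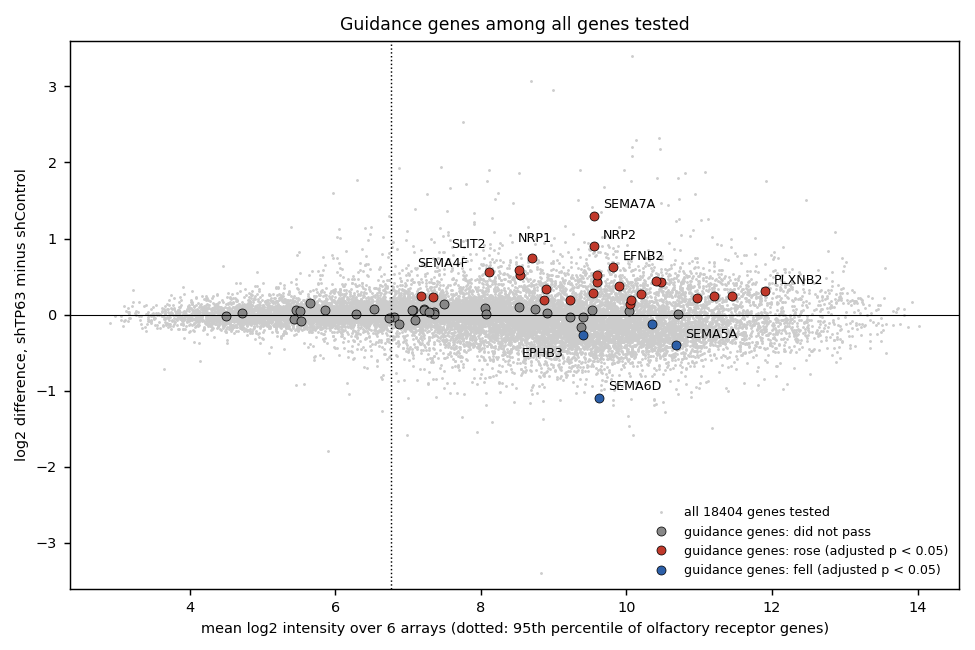
Difference in log2 intensity (vertical axis) against mean log2 intensity over the 6 arrays (horizontal axis) for all 18404 genes in grey and the 62 guidance genes in colour, with the background level of 6.76 as a dotted line. The guidance genes that rose or fell all lie to the right of that line, and SEMA7A, NRP2 and SEMA6D lie toward the edges of the grey cloud at their level.

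Among the Eph receptors, 3 of 13 rose and 1 fell (2 rose and 2 fell under median centring). EPHA2, the receptor tyrosine kinase through which ephrin-A1 restrains epithelial growth and migration, read 9.26, 9.37 and 9.40 in shControl and 9.92, 9.84 and 9.83 in shTP63. All 3 shTP63 arrays lay above all 3 shControl arrays, a difference of 0.52 (SE 0.051, 1.43-fold, limma adjusted p = 6.74e-05). EPHB4, the receptor for ephrin-B2, read 9.69, 9.72 and 9.72 in shControl against 10.06, 10.02 and 10.16 in shTP63. Its groups also did not overlap, and the difference was 0.38 (SE 0.048, limma adjusted p = 2.63e-04). EPHA1 passed with a smaller difference of 0.14 (SE 0.048, limma adjusted p = 0.0394). That call was lost without shControl array 1, 2 or 3 and without shTP63 array 2 or 3, with adjusted p between 0.0556 and 0.112, and the difference was 0.04 under median centring.

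EPHB3, another kinase receptor for B-type ephrins, was the Eph receptor that fell. It read 9.55, 9.50 and 9.56 in shControl and 9.17, 9.26 and 9.38 in shTP63, a difference of -0.27 (SE 0.058, limma adjusted p = 0.00547). EPHB3 and EPHB4 thus moved in opposite directions, each without overlap between groups. The 9 Eph receptors that did not pass were EPHA3, EPHA4, EPHA5, EPHA6, EPHA7, EPHA8, EPHA10, EPHB1 and the kinase-inactive EPHB6. Of these, EPHA3, EPHA5, EPHA6, EPHA7 and EPHB1 were under background in both groups. EPHA3 had a difference of 0.15 (limma adjusted p = 0.0811), and it passed without shControl array 3 (0.21, adjusted p = 0.0258).

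The promoter of EPHA2 is printed because it held 2 of the 4 motifs searched and its gene rose. Promoters here are the 250 bases before the RefSeq transcription start in GRCh38.p14, read 5′ to 3′ on the gene's strand, and RefSeq promoters matched 54 of the 62 guidance genes. The motifs, each searched on both strands, were a strict p63 pair (CATG, any 6 bases, CATG), a loose p63 pair (CNTG, any 6 bases, CNTG), the AP-1 motif TGANTCA and the TEAD motif GGAATG, and capitals mark a match. In EPHA2, on the minus strand at chr1:16156070-16156319, the TEAD match began 73 bases and the loose p63 pair 36 bases before the start.

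EPHA2: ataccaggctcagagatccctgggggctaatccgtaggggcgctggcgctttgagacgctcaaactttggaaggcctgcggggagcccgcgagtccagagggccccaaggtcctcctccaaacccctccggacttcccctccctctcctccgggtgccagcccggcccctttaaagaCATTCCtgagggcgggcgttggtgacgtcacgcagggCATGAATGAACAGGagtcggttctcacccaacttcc

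Of the 8 ephrins 5 rose and 0 fell, and at an unadjusted p under 0.05 6 rose and 0 fell. EFNB2, the transmembrane ligand of EPHB4, read 9.53, 9.49 and 9.51 in shControl and 10.15, 10.08 and 10.17 in shTP63. The arrays of each group lay close together and the groups did not overlap, with a difference of 0.62 (SE 0.043, 1.54-fold, limma adjusted p = 1.13e-05). EFNA4, a ligand anchored to the membrane by a lipid, read 10.26, 10.26 and 10.27 in shControl against 10.69, 10.72 and 10.67 in shTP63. Its difference was 0.43 (SE 0.041, limma adjusted p = 5.12e-05). EFNA3 rose by 0.43 (SE 0.055, limma adjusted p = 2.57e-04) and EFNA1, the main ligand of EPHA2, by 0.28 (SE 0.046, limma adjusted p = 0.00108).

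EFNA4, EFNA3 and EFNA1 are neighbours on chromosome 1, with 1 annotated coding gene between EFNA4 and EFNA3, their readthrough, and 0 between EFNA3 and EFNA1. All 3 rose, and signal from the readthrough cannot be told apart here from that of EFNA4 and EFNA3. EFNB3 rose by 0.24 (SE 0.061, limma adjusted p = 0.0115), and its call was lost under median centring (0.13, adjusted p = 0.0857). EFNA2, EFNA5 and EFNB1 did not pass. EFNA2 had a difference of 0.10 (limma adjusted p = 0.0879) with groups that did not overlap, and EFNB1 one of 0.06 (limma adjusted p = 0.350).

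The semaphorins made up 19 of the genes, of which 9 rose, 3 fell and 7 did not pass, while 6 fell under median centring. SEMA7A, the lipid-anchored semaphorin that binds integrin beta-1 and plexin-C1, read 8.84, 8.91 and 8.98 in shControl and 10.23, 10.15 and 10.25 in shTP63. Every shTP63 array was more than 1 log2 unit above every shControl array. The difference was 1.30 (SE 0.051, 2.46-fold, limma adjusted p = 6.64e-07), which ranked 45 in size among the 3015 genes that rose. SEMA6D, a transmembrane semaphorin that signals through plexin-A1, read 10.18, 10.20 and 10.12 in shControl and 9.02, 9.14 and 9.08 in shTP63. The groups were far apart in the other direction, with a difference of -1.09 (SE 0.048, 2.13-fold lower, limma adjusted p = 1.09e-06), ranking 28 among the 4619 genes that fell.

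SEMA7A and SEMA6D both lie on chromosome 15, and their promoters are shown because they carried the largest changes in opposite directions. SEMA7A lies on the minus strand, with its promoter at chr15:74433959-74434208 holding 1 loose p63 pair that began 31 bases before the start, in capitals. SEMA6D lies on the plus strand, with its promoter at chr15:47183839-47184088, in which none of the motifs searched was found.

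SEMA7A: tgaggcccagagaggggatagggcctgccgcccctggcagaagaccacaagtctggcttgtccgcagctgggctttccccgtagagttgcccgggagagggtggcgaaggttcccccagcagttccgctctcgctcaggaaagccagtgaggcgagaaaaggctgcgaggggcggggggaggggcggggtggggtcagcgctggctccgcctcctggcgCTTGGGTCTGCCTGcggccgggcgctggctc
SEMA6D: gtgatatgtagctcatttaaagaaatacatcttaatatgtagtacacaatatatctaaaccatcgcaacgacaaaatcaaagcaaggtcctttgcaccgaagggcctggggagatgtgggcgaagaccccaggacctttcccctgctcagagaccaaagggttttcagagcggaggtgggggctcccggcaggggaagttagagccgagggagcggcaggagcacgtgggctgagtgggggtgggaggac

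Among the other class 5 to 7 semaphorins, SEMA5A, which carries thrombospondin repeats, read 10.89, 10.86 and 10.89 in shControl and 10.34, 10.49 and 10.62 in shTP63. The shTP63 arrays were more spread than the shControl arrays but all lay below them, a difference of -0.40 (SE 0.067, limma adjusted p = 0.00123). SEMA6B rose by 0.34 (SE 0.048, limma adjusted p = 4.53e-04). SEMA5B, SEMA6A and SEMA6C did not pass. SEMA6C had a difference of 0.14 (limma adjusted p = 0.0895) and passed without shControl array 1 (0.19, adjusted p = 0.0354). SEMA6A, under background in both groups, had one of -0.08 (limma adjusted p = 0.399) and passed without shControl array 2 (-0.16, adjusted p = 0.0427).

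Of the 5 class 4 semaphorins, transmembrane ligands, 4 rose. SEMA4F read 7.74, 7.90 and 7.86 in shControl and 8.30, 8.33 and 8.55 in shTP63, without overlap. Its difference was 0.56 (SE 0.074, 1.47-fold, limma adjusted p = 3.12e-04). SEMA4D, the ligand of plexin-B1, read 8.27, 8.27 and 8.29 in shControl and 8.71, 8.78 and 8.90 in shTP63. The shControl arrays were nearly identical, and the difference was 0.52 (SE 0.055, 1.43-fold, limma adjusted p = 9.86e-05). A second SEMA4D probe set, under background, read 6.73 in shControl and 6.66 in shTP63, a difference of -0.07, so the 2 probe sets disagreed and their mean gave 0.23. SEMA4B rose by 0.27 (SE 0.054, limma adjusted p = 0.00324) and SEMA4G by 0.25 (SE 0.062, limma adjusted p = 0.0109), and the SEMA4G call was lost under median centring (0.14, adjusted p = 0.0740).

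SEMA4A was the class 4 member that did not pass. It read 9.42, 9.46 and 9.51 in shControl and 9.20, 9.26 and 9.42 in shTP63, a difference of -0.17 (SE 0.061, limma adjusted p = 0.0553). The groups touched to 2 decimals, and shTP63 array 3 was the nearest to shControl. Without that array the difference was -0.23 and passed (adjusted p = 0.00818). With all arrays it also passed under 5 other settings, with adjusted p from 0.00418 under median centring to 0.037. Why the call was missed was not tested.

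The class 3 semaphorins are secreted ligands, most of them of neuropilin and plexin complexes, and 3 of 7 rose while 1 fell. SEMA3C read 10.19, 10.20 and 10.18 in shControl and 10.65, 10.66 and 10.58 in shTP63. Its groups were tight and separate, with a difference of 0.44 (SE 0.043, limma adjusted p = 6.30e-05). SEMA3A, which repels axons through NRP1, rose by 0.25 (SE 0.060, limma adjusted p = 0.00916), and SEMA3F, which prefers NRP2, by 0.19 (SE 0.047, limma adjusted p = 0.010045). Both calls were lost under median centring, at 0.14 (adjusted p = 0.0760) and 0.08 (adjusted p = 0.192). SEMA3D fell by 0.13 (SE 0.041, limma adjusted p = 0.0331), a call lost under cyclic loess (-0.06, adjusted p = 0.323) and without any 1 of 5 arrays (shControl 1, 2 or 3, shTP63 1 or 2), with adjusted p from 0.0688 to 0.109.

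SEMA3C, SEMA3E, SEMA3A and SEMA3D follow each other on chromosome 7, with 3 coding genes between SEMA3C and SEMA3E and 0 between the later ones. These neighbours did not share a direction: SEMA3C and SEMA3A rose, SEMA3D fell, and SEMA3E was under background in both groups. SEMA3B and SEMA3F lie on chromosome 3 with 3 genes between them, and SEMA3B, which did not pass, had a difference of -0.07 (limma adjusted p = 0.312). SEMA3E and SEMA3G were the other class 3 members that did not pass.

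Both neuropilins rose. NRP2, a coreceptor for class 3 semaphorins and vascular endothelial growth factors, read 9.10, 9.11 and 9.11 in shControl and 9.93, 9.99 and 10.09 in shTP63. The shControl arrays were nearly identical, and the difference was 0.90 (SE 0.050, 1.86-fold, limma adjusted p = 3.72e-06). A second NRP2 probe set went the same way, from 8.79 to 9.83, a difference of 1.04. NRP1, the related coreceptor, read 8.33, 8.35 and 8.33 in shControl and 9.01, 9.06 and 9.16 in shTP63. Its difference was 0.74 (SE 0.049, 1.67-fold, limma adjusted p = 9.47e-06), again with no overlap.

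Among the 9 plexins 4 rose and 0 fell, with the same counts at an unadjusted p under 0.05. PLXNB2, a receptor for class 4 semaphorins, read 11.72, 11.75 and 11.77 in shControl and 12.02, 12.06 and 12.08 in shTP63. The groups were separate, and the difference was 0.31 (SE 0.042, limma adjusted p = 3.70e-04). PLXNA1, the signalling partner of neuropilins and of SEMA6D, read 10.85, 10.82 and 10.89 in shControl and 11.001, 11.07 and 11.16 in shTP63, a difference of 0.22 (SE 0.052, limma adjusted p = 0.00741). PLXNA2 and PLXNA3 each rose by 0.19 (SE 0.049 and 0.059, limma adjusted p = 0.0113 and 0.0273).

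The 3 class A calls were lost under median centring, at 0.11, 0.09 and 0.08 for PLXNA1, PLXNA2 and PLXNA3, where 1 of 9 plexins rose and 1 fell. The PLXNA3 call was also lost without shControl array 1 (0.19, adjusted p = 0.0676), shControl array 2 (0.17, adjusted p = 0.0965) or shTP63 array 3 (0.14, adjusted p = 0.0721). PLXNA4, PLXNB1, PLXNB3, PLXNC1 and PLXND1 did not pass. PLXNC1, the plexin that binds SEMA7A, was under background in both groups, while SEMA7A's other receptor chain ITGB1 read 11.37 in shControl and 11.95 in shTP63.

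The PLXNB2 promoter is printed because it was the single promoter of the 54 with the strict p63 pair, which 0.197% of the 14228 promoters of tested genes held. It lies on the minus strand at chr22:50301670-50301919, and the pair, in capitals, began 246 bases before the start.

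PLXNB2: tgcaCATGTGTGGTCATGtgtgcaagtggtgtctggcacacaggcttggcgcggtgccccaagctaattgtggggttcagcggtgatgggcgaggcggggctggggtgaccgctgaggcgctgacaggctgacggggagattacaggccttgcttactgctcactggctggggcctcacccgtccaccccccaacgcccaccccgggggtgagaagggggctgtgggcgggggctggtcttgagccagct

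The loose pair was found in 10 of the 54 promoters (18.5%) and in 1707 of the 14228 promoters of tested genes. Those 10 were 4 of the 21 promoters of guidance genes that rose (EPHA2, NTN4, PLXNB2 and SEMA7A) and 6 of the 29 that did not pass. The pair was in 0 of the 4 that fell. It was thus no more frequent among genes that rose than among those that did not pass. Every strict pair is also a loose one. The AP-1 motif was in 1 of the 54 (PLXNC1, 1.85%) and in 4.91% of all, and the TEAD motif in 3 (EPHA2, PLXNB3 and SEMA4A, 5.56%) and in 10.0% of all. A match describes letters in a window of 250 bases and says nothing of binding.

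Of the 3 Slits 1 rose. SLIT2, the secreted ligand of ROBO1 and ROBO2, read 8.22, 8.26 and 8.23 in shControl and 8.69, 8.87 and 8.92 in shTP63. The shTP63 arrays were more spread than the shControl arrays but did not overlap them, and the difference was 0.59 (SE 0.061, 1.51-fold, limma adjusted p = 8.30e-05). SLIT3 had a difference of -0.13 (limma adjusted p = 0.105) with groups that did not overlap, and it passed as a fall under 4 other scalings, at -0.16 to -0.24. SLIT1 was under background in both groups.

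Of the 4 Robos 0 rose and 0 fell, also at an unadjusted p under 0.05. ROBO1, a receptor for SLIT2, read 10.01, 9.98 and 10.03 in shControl and 9.97, 10.05 and 10.15 in shTP63. These arrays overlapped, and the difference was 0.05 with a 95% interval of -0.07 to 0.17 (limma adjusted p = 0.496). ROBO2 was under background in both groups, and ROBO3 and ROBO4 were dim and did not pass.

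Of the 4 netrins 1 rose. NTN4, a netrin of basement membranes that binds laminin, read 11.08, 11.07 and 11.06 in shControl and 11.28, 11.36 and 11.33 in shTP63, a difference of 0.25 (SE 0.043, limma adjusted p = 0.00141). Its groups did not overlap. NTN1, the classical axon attractant, had a difference of 0.08 (limma adjusted p = 0.212), and NTN3 and NTN5 did not pass either.

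**Figure D3:**
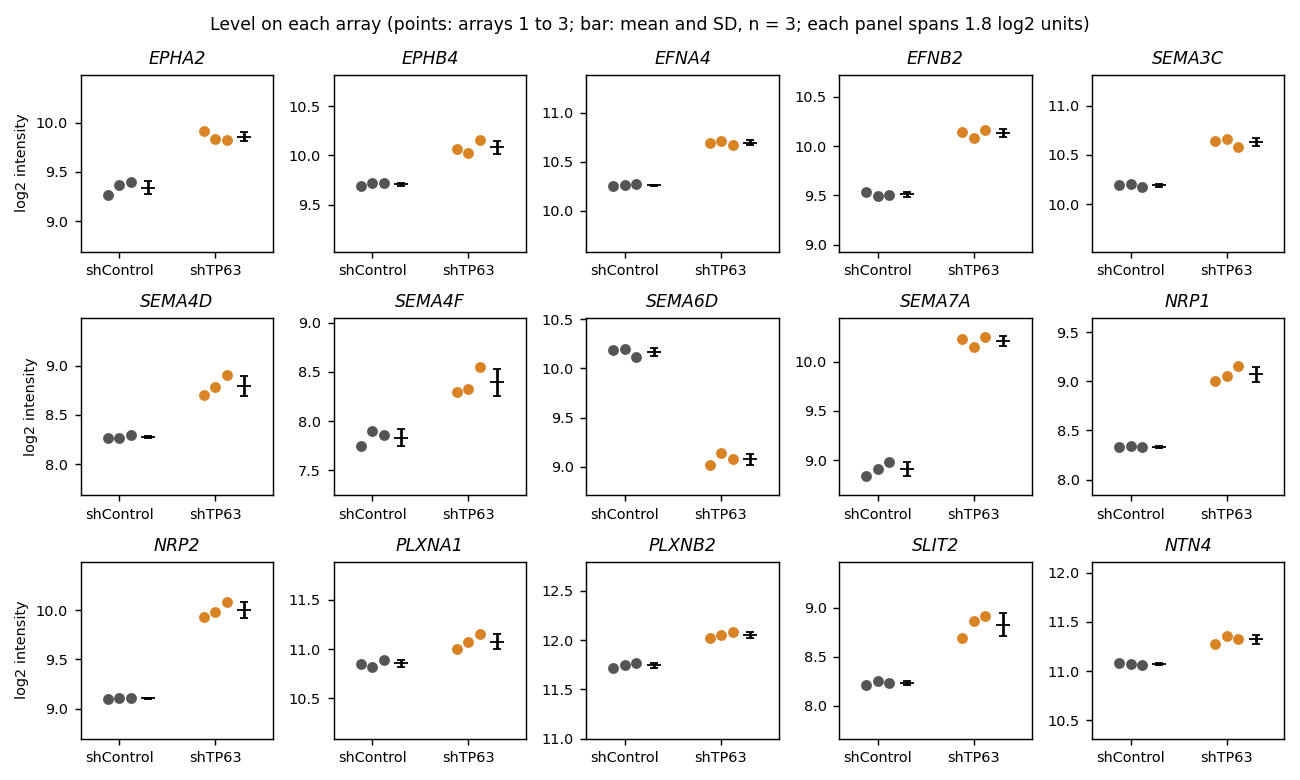
Log2 intensity on each array (points) with the mean and standard deviation beside them (bars, n = 3) for 15 guidance genes in shControl (grey) and shTP63 (orange). Each panel spans the same number of log2 units on its own range, and in every panel the 2 groups are separate, with SEMA6D the one gene shown that is lower in shTP63.

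Across roles, 16 of 34 ligands rose and 3 fell, and 9 of 28 receptors rose and 1 fell, a contrast between roles that was not tested. Among the known pairs described above, ligand and receptor both rose for EFNB2 and EPHB4, EFNA1 and EPHA2, SEMA3A and NRP1, SEMA3F and NRP2, and SEMA3C and the neuropilins. Other pairs did not share a direction. EFNB2 rose while EPHB3 fell, SEMA6D fell while PLXNA1 rose, and the class 3 ligand SEMA3D fell while both neuropilins rose. Among the genes of these pairs, the calls of SEMA3A, SEMA3F, SEMA3D and PLXNA1 were each lost under at least 1 alternative analysis. SLIT2 rose while ROBO1 did not pass, SEMA4D rose while PLXNB1 did not pass, and SEMA7A rose while PLXNC1 was under background. However, SEMA7A's other receptor chain ITGB1 rose by 0.57. PLXNB2, described above as a receptor for the semaphorin class of SEMA4D, rose by 0.31. For SEMA7A and SEMA4D, whether ligand and receptor both rose thus depended on the receptor picked. These pairs were picked from background knowledge and were not tested as pairs. The 33 genes that did not pass had 95% intervals between -0.31 and 0.30. On the array scale, changes of 0.5 in either direction lay outside all of them. These intervals rest on scatter that may be technical. For the 10 of these genes under background in both groups, a narrow interval does not exclude a change in RNA.

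**Figure D4:**
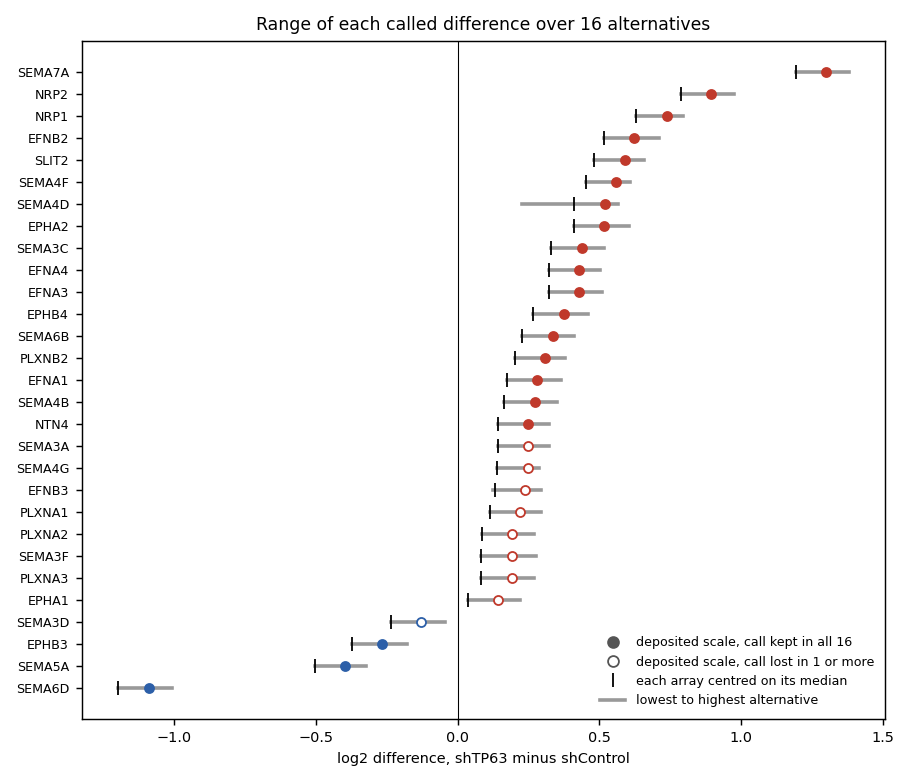
Lowest to highest log2 difference (grey bar) of each of the 29 called guidance genes over 16 alternative analyses, with the value on the deposited scale as a circle and that after median centring as a black tick. The 20 filled circles kept their call throughout, the 9 open ones lost it at least once, and no bar crosses 0.

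Other genes of these pathways were read from lists of receptors and effectors. Of 16 netrin, RGM and FLRT receptors and partners, 2 fell and 6 rose (median difference 0.12). Under further quantile normalization and under median centring 4 rose, and the median was 0.01 in both. FLRT2, a membrane ligand of UNC5 receptors, had a difference of 0.86 (SE 0.063), NEO1, the netrin and RGM receptor neogenin, one of 0.44 (SE 0.052), and LRIG2 one of 0.32 (SE 0.046), each with a limma adjusted p of 5.01e-04 or lower. Of 19 coreceptors and sheddases 10 rose and 1 fell (median 0.16), while under median centring 7 rose and 2 fell (median 0.05). Further quantile normalization and cyclic loess each gave 9 rises and 2 falls. MET, the hepatocyte growth factor receptor that associates with class B plexins, rose by 0.80 (SE 0.043), the protease RHBDL2 by 0.76 (SE 0.064) and ITGB1 by 0.57 (SE 0.044), while the syndecan SDC1 fell by 0.41 (SE 0.050).

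Effectors inside the cell had other counts. Under median centring 9.68% of all genes rose and 43.1% fell, with a median of -0.12, and the centred values of each list stand beside these. Of 27 Eph and ephrin effectors 1 rose (3 under cyclic loess) and 11 fell (median -0.05), with 16 falls and a median of -0.16 under median centring. The PDZ scaffold GRIP1, which binds B-type ephrins, fell by 0.82 (SE 0.058) and the phosphatase ACP1 by 0.54 (SE 0.040), and the kinase ABL2 rose by 0.56 (SE 0.047). Of 23 plexin effectors 4 rose and 7 fell (median -0.03), and 12 fell under median centring (median -0.14). DPYSL2, the semaphorin mediator CRMP2, fell by 0.80 (SE 0.043) and the GTPase RAP1A by 0.39 (SE 0.056).

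Of 11 Robo effectors 0 rose, also at an unadjusted p under 0.05, and 5 fell (median -0.01, or -0.11 under median centring), while 2 rose after quantile normalization over named probe sets and 1 in the unmoderated test. The actin regulator CAP2 fell by 0.62 (SE 0.045), the exchange factor SOS1 by 0.40 (SE 0.048) and ARHGAP1 by 0.37 (SE 0.041). The counts of these lists stand beside the 16.4% of all genes that rose and 25.1% that fell, and the lists were not tested as sets. They were also not read within bins of mean level. In the brightest bin 25.3% of all genes rose and 44.0% fell, and in the bin below it 18.5% rose and 43.0% fell. Many of the effectors were bright, so their falls cannot be set against 25.1% alone.

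**Figure D5:**
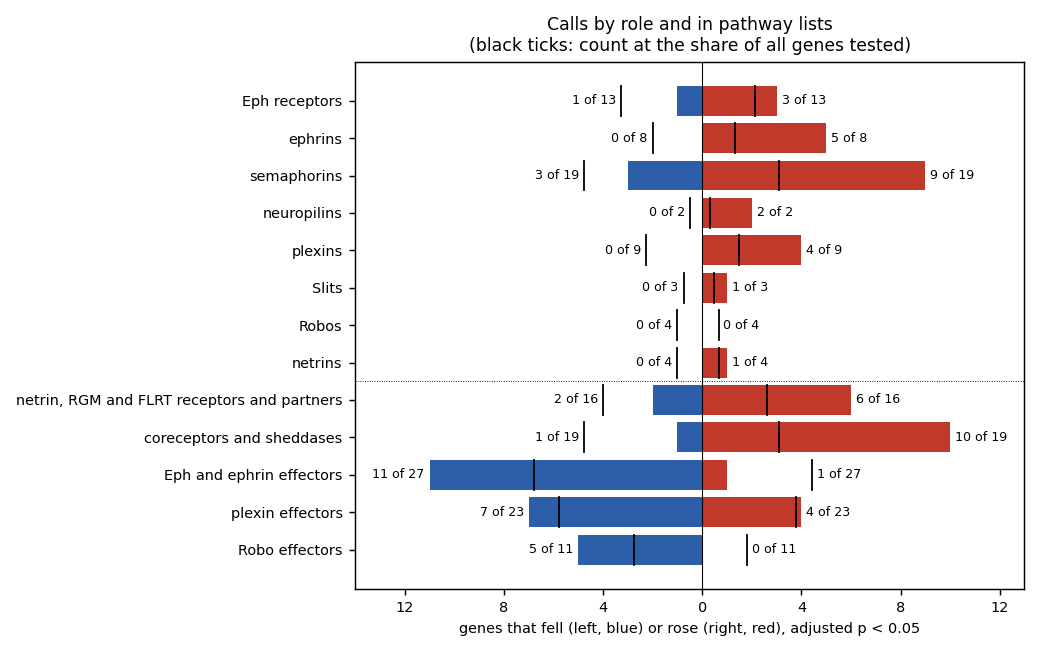
Number of genes that rose (right, red) or fell (left, blue) at an adjusted p under 0.05 in each of the 8 roles of the guidance genes and in each of the 5 lists of partners and effectors, with black ticks at the count that the share of all genes tested would give. The ephrins and semaphorins have 5 of 8 and 9 of 19 rises, and the Eph and ephrin effectors have 11 of 27 falls. The ticks take no account of mean level. Many of the effectors were bright, and 44.0% of all genes fell in the brightest bin and 43.0% in the bin below it.

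Markers of cell types were read beside these results. Of the 12 keratinocyte markers measured 2 rose and 5 fell, with a summed intensity of 69200 to 71500 in shControl and 61600 to 62500 in shTP63. Of all genes tested 16.4% rose and 25.1% fell, and in the brightest bin of mean level 25.3% rose and 44.0% fell. These marker counts are near the shares of bright genes. KRT5, 1 of the 5 that fell, read 13.82 in shControl and 13.31 in shTP63, while LAMB3 rose by 0.33 and ITGB4 by 0.21. In bulk RNA, fewer cells of a type and less RNA per cell cannot be told apart. Summed neural markers were 728 to 761 and 717 to 750, with 5 of 8 under background, and summed fibroblast markers 1190 to 1230 and 1250 to 1330, with 3 of 8 under background. Endothelial markers summed to 1320 to 1390 and 1380 to 1450, with 4 of 7 under background, although CDH5 read 9.50 in shControl and 9.57 in shTP63. Immune markers summed to 887 to 970 and 1330 to 1430, where CD68 and CD14 rose by 0.75 and 0.70 and the other 5 of 7, among them PTPRC, CD3E and LYZ, were under background. The part of these shifts in the guidance genes was not tested.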

How the data were processed

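RNA of 3 shControl and 3 shTP63 HaCaT samples was labelled with biotin through an oligo-dT primed amplification, per the labels' protocols. The deposited values were linear intensities per probe set, made by the authors with RMA in R 2.15.1, per the submitters' processing notes; the genome build is not given in the sources used here. Here log2 of the deposited intensities was taken with no further normalization. Of 32321 probe sets, 19158 carried 1 gene symbol, 1388 several and 11775 none in the platform annotation. The probe set with the highest mean stood for each of 18404 genes (637 had several), and RefSeq held all 62 guidance genes.

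Groups were compared with lmFit and eBayes in limma 3.58.1 (R 4.3.3), Benjamini-Hochberg adjusted over all genes, at 0.05. The fit was tested on simulated data. The number of arrays limits the precision (median standard error 0.053). Values on every array are given for genes past 0.5 and the threshold, and for the member of each family with the smallest passing adjusted p; SEMA5A, EPHB3, SEMA4A and ROBO1 were added after their values were seen. From each list, up to 3 genes with the smallest passing adjusted p are named (1 list and 1 gene are not reported here), and SDC1, KRT5, PTPRC and other single markers were chosen after seeing values. The members and lists were chosen with earlier results of these data known. Alternatives covered scaling, dim probe sets, probe set choice, the prior, array weights, the threshold, the replicate block and leaving out each array. The counts per role and list under these alternatives were added after seeing the data.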

Additional observations from a re-analysis of the deposited data

How the results depend on the processing

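Of the 29 called guidance genes, 20 kept their call and direction under all 16 alternatives at the 0.05 threshold, 9 lost the call in at least 1 (EFNB3, EPHA1, PLXNA1, PLXNA2, PLXNA3, SEMA3A, SEMA3D, SEMA3F and SEMA4G) and 0 changed sign. Of the 33 that did not pass, 11 passed in at least 1, and 22 changed sign in at least 1 and passed in none. Centring each array on its median gave 17 rises and 10 falls. Under it the differences of EFNA2, EFNB1, NTN1 and ROBO1 turned to -0.0121, -0.0496, -0.027 and -0.0572, and the medians of the Eph receptors, plexins, Robos, Slits and netrins to -0.06, -0.05, -0.05, -0.04 and -0.03. By construction this subtracts the difference of the array medians from every gene. After quantile normalization over probe sets with 1 gene, EFNA2, EFNB1 and NTN1 instead passed as rises, at 0.14, 0.15 and 0.15. Further quantile normalization gave 23 rises and 6 falls, a threshold of 0.01 gave 19 and 3, and the unmoderated test 21 and 4. Leaving out 1 array gave 23 to 25 rises and 3 to 5 falls. With a replicate block the counts were 25 and 4, with EPHA1 and SEMA3D losing and SEMA4A and EPHA3 gaining a call among the genes described with values. Deviations of same-numbered arrays from their group means correlated at -0.15, -0.04 and 0.13. With 3 arrays per group these correlations cannot show whether the replicate numbers pair the samples, and the labels do not say. Where a call depended on an alternative, the cause was not tested. Genes near background have dim signal, so a missing call there says little.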
